A study of Mus musculus with 207 samples.

Results

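The Rab genes encode small GTPases that switch between a GTP-bound and a GDP-bound state and give each membrane compartment of a cell its identity. All 112 probes whose annotated symbol was Rab followed by a number, with or without a letter, were taken, of 45281 probes on the array. They stood for 59 genes of 19057 named genes, and each gene was represented by its brightest probe. RNA of the cecum was measured in females and males of the incipient Collaborative Cross (CC) on Illumina BeadChips, 1 array per mouse, with 205 mice of known sex and 2 of unclear sex that entered no fit with sex. The CC descends from classical inbred strains, among them C57BL/6J, and from the wild-derived WSB/EiJ, PWK/PhJ and CAST/EiJ, and the mice were adults fed chow, had no treatment and were not yet fully inbred. The first number of each animal's label was taken as its line, giving 113 lines, of which 92 held both sexes (185 mice). This reading is uncertain, since the study gives another number of lines for its microbial data, and lines were caged apart, so ancestry and cage cannot be told apart.

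The RNA came from cells that EDTA, a chelator that loosens epithelium from the wall, had released from the cecum. Marker genes of epithelium (15 of 15 measured above background), fibroblasts and matrix (11 of 11) and smooth muscle (9 of 10) were all detected. In such bulk RNA, fewer cells of a type and less RNA per cell cannot be told apart. The median intensity of an array was 53.1 to 103.7 in females and 41.5 to 99.7 in males. Values below 0 occurred on 8 arrays (6 female, 2 male), and results that rest on these arrays are given without them as well. Values under 16 were set to 16 (a log2 of 4), which touched 130 of 23184 Rab values. By Xist and the Y-linked genes, 4 of the 205 mice went against their labelled sex. The last number of the label was under 100 in 117 mice and 100 or more in 90, and both series were also fitted alone.

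Rab proteins carry a lipid anchor, are switched on by exchange factors, switched off by GTPase-activating proteins, and recruit effectors such as tethers and motor proteins. In gut epithelium they route membrane proteins to the apical or the basolateral side and guide secretory granules, among them those of goblet cells, to the surface. The 59 genes were grouped by the compartment at which their proteins are best known. There were 7 genes of the early endosome, 13 of recycling and apical transport, 13 of the late endosome and lysosome, 12 of the endoplasmic reticulum and Golgi, 9 of secretory granules and 5 others.

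For 48 of the 59 genes, a promoter window of 300 bases (250 before and 50 after the start) was found in RefSeq (GRCm38.p6). The windows of 4 genes among those with the largest slopes on epithelial against stromal genes (1 above 0, Rab25, and 3 below 0) are printed 5′ to 3′ on the strand of the gene. Rab4a is not shown, nor Rab43, for which several starts are listed. Capitals mark matches to CCAAT or to GGGCGG on either strand. No match to TATAAA was found in them, nor to CACGTG.
Rab25: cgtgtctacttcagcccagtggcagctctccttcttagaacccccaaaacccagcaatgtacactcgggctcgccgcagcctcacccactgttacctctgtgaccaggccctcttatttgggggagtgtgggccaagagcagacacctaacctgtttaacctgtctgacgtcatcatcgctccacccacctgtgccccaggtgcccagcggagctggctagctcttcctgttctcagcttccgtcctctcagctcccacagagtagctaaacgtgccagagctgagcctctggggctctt
Rab8b: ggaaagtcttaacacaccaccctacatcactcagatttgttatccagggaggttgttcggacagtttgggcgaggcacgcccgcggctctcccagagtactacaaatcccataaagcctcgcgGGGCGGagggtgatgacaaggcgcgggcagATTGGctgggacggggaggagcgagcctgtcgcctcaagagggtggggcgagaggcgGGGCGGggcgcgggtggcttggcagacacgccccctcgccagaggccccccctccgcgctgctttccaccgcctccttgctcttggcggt
Rab28: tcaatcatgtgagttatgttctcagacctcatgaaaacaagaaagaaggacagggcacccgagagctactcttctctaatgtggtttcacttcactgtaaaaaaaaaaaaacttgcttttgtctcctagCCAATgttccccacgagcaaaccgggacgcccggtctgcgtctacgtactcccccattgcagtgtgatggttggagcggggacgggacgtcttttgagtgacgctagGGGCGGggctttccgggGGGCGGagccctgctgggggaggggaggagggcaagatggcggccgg
Rab5b: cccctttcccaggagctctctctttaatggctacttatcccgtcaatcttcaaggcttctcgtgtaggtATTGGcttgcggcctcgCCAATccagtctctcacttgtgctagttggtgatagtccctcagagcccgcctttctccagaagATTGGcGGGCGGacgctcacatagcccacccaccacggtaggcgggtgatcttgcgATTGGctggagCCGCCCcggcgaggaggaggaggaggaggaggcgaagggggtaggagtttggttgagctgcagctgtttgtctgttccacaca
The windows lie at chr3:88548230-88548529 (Rab25), chr9:66919656-66919955 (Rab8b), chr5:41708130-41708429 (Rab28) and chr10:128696219-128696518 (Rab5b), all on the minus strand. The window of Rab25, an epithelial member of the Rab11 family, held none of the 4 motifs, while that of Rab5b held CCAAT 4 times and GGGCGG 2 times. Over both strands, GGGCGG stood in the windows of 36 of 48 Rab genes (75%), against 38.2% of all 27025 genes with a window, and CCAAT in 26 (54.2%), against 41.1%. TATAAA stood in 4 Rab genes (8.33%), against 15.7% of all genes, and CACGTG in 6 (12.5%), against 8.09%. These shares describe the letters in the windows and were not tested.

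Rab genes of all compartments were detected in the cecum, and those of the synapse and of specialised secretory cells were mostly dim. The background threshold was a mean log2 intensity of 6.33, below which 95% of 1540 probes for receptors of smell and taste lay. Of the 59 genes, 48 exceeded it, against 59.8% of all named genes (11405 of 19057). The 11 below it were Rab2b, Rab3b, Rab3c, Rab9b, Rab20, Rab26, Rab30, Rab36, Rab37, Rab40b and Rab44. All 13 genes of recycling and apical transport were above background, against 4 of 9 genes of secretory granules (Rab3a, Rab3d, Rab27a and Rab27b). The signal of a probe depends on the probe as well as on the transcript, so levels of different genes are listed and not compared. The probes with the highest mean log2 intensity were those of Rab2a (12.50 ± 0.51, SD over all mice), which acts between endoplasmic reticulum and Golgi, and of Rab28 (11.67 ± 0.67), which is known from cilia. They were followed by the apical exocytosis gene Rab8a (11.50 ± 0.40), by Rab11b (11.47 ± 0.80) and Rab25 (11.17 ± 0.47) of the recycling endosome, and by Rab5c (10.92 ± 0.33) of the early endosome. Across mice, the SD of the 48 genes had a median of 0.42 log2 units, against 0.43 for all genes above background.

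**Figure D1:**
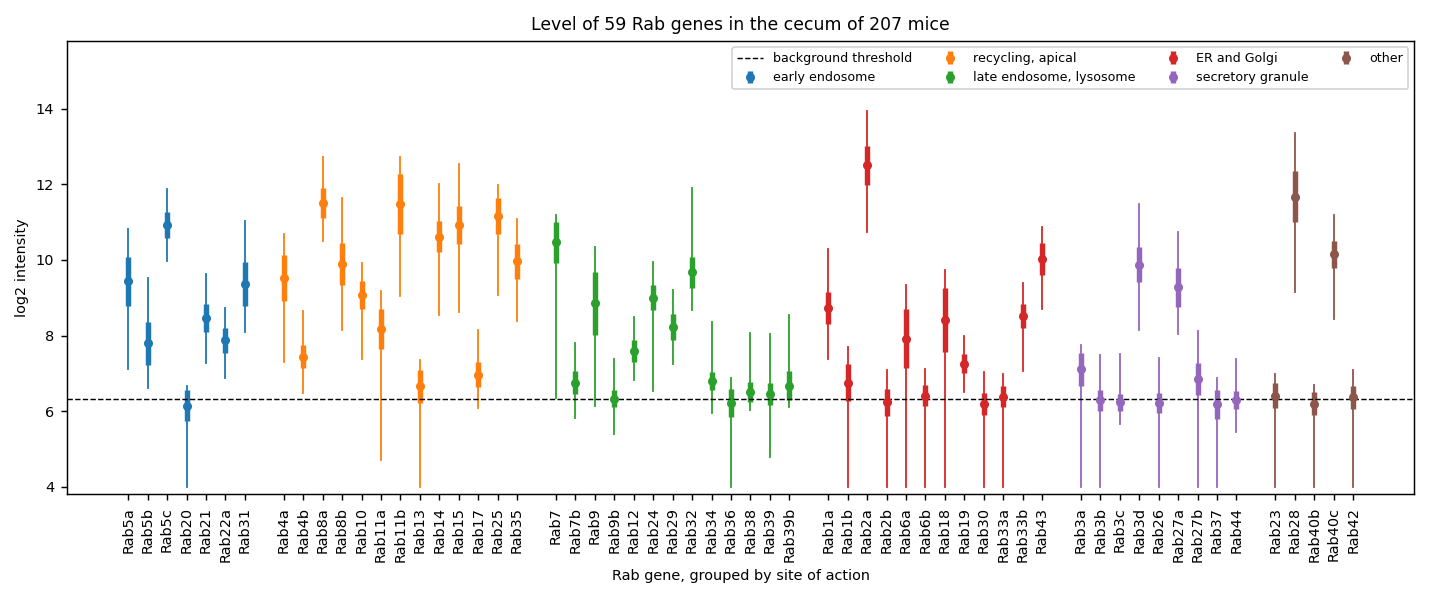
Log2 intensity of the representing probe of each of 59 Rab genes in all mice, grouped by compartment. Points are means, thick bars 1 SD, thin lines the lowest to the highest mouse, and the dashed line is the background threshold of 6.33. All 13 recycling and apical genes have means above the line, and 5 of the 9 secretory granule genes have means below it.

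No Rab gene was called different between females and males. Over all 45281 probes, limma called 16 (0.0353%) at a Benjamini-Hochberg adjusted p under 0.05, none of them of a Rab gene, and 0 of the 59 genes had an unadjusted p under 0.05, against 472 of all probes. Differences of the 59 genes, female minus male, ran between -0.13 and 0.09 log2 units. Rab25, for example, had log2 intensities of 9.08, 11.21 and 11.98 in females (lowest, median, highest), against 9.83, 11.26 and 11.95 in males, ranges that overlapped almost wholly.

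To ask which Rab genes follow epithelial and which follow stromal genes across mice, each marker list was averaged into an index (mean of standardised log2 values of its genes above background). The stromal index was the mean of the fibroblast and matrix index and the smooth muscle index, and their balance was the epithelial minus the stromal index, scaled to an SD of 1. For each probe, limma gave the slope on the balance with sex as a covariate in 205 mice. A slope above 0 means a higher signal in mice with relatively more epithelial signal. Of the 59 Rab genes, 13 (22%) had a slope above 0 at an adjusted p under 0.05, where 9.79% of all named genes had one, and 15 (25.4%) had a slope below 0, where 24.8% had one. Among the 48 above background, 13 (27.1%) against a share of 15.9% had a slope above 0 and 12 (25%) against 25.3% one below 0. The share below 0 was near that of all genes, and 23 of the 48 passed on neither side (Rab1a, Rab1b, Rab3a, Rab3d, Rab5a, Rab6a, Rab6b, Rab7b, Rab8a, Rab11a, Rab13, Rab15, Rab17, Rab18, Rab21, Rab22a, Rab23, Rab27b, Rab29, Rab31, Rab32, Rab33a and Rab42). The 3 dim genes with a slope below 0 were Rab3c, Rab9b and Rab26.

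Genes of recycling and apical transport made up 7 of the 13 with a slope above 0. These were Rab4a, Rab4b, Rab10, Rab11b, Rab14, Rab25 and Rab35, of 13 genes in that group, in which only Rab8b had a slope below 0 that passed. Over the 13, the median slope was 0.074 log2 units per SD of the balance, against -0.011 over all genes above background. The median was -0.05 over the 6 early endosome genes above background and also -0.05 over the 11 genes of the late endosome and lysosome. The largest slope above 0 was that of Rab4a, which returns cargo from the early endosome to the surface (0.18 ± 0.04 log2 units per SD, SE, adjusted p = 0.00027). Its log2 intensity was 7.29, 9.66 and 10.67 in females and 7.83, 9.67 and 10.38 in males (lowest, median, highest). Rab25, which is found in epithelial cells and sorts cargo at the apical recycling endosome, had a slope of 0.18 ± 0.03 (adjusted p = 9.6e-07). Rab43, which acts at the Golgi, had 0.18 ± 0.03 (adjusted p = 2.8e-08), with values of 8.91, 10.07 and 10.86 in females and 8.70, 10.08 and 10.83 in males. For both genes with values given, females and males overlapped over nearly the whole range. Across the 205 mice, the balance had an r of 0.39 (rho 0.35, 0.35 without the 2 mice farthest from its median) with Rab25 and of 0.42 (rho 0.45, 0.44 without them) with Rab43. Smaller slopes above 0 belonged to the late endosome genes Rab9 (0.14 ± 0.06, adjusted p = 0.044) and Rab7 (0.12 ± 0.04), to Rab11b (0.14 ± 0.05), to Rab14 (0.10 ± 0.03) and to Rab35 (0.10 ± 0.03). Both other probes of Rab9, dim at mean log2 intensities of 6.37 and 6.40, had slopes below 0 (-0.06 each, adjusted p = 0.00083 and 0.0037). The others with a slope above 0 were Rab24, an autophagy-related Rab (0.06 ± 0.02, adjusted p = 0.043), Rab40c, part of a ubiquitin ligase (0.08 ± 0.02, adjusted p = 0.0096), and Rab5c, given below beside its paralog Rab5b. With fibroblast and matrix genes alone as the stromal index, Rab9 (0.09, adjusted p = 0.39) and Rab7 (0.09, adjusted p = 0.11) no longer passed. With smooth muscle genes alone, Rab11b (0.09, adjusted p = 0.22) and Rab35 (0.07, adjusted p = 0.052) did not. Rab9 also failed under quantile normalization (0.12, adjusted p = 0.069) and after subtraction of the 5th percentile of each array (0.14, adjusted p = 0.065).

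The slopes below 0 belonged to genes of several compartments. Rab8b, a paralog of the apical exocytosis gene Rab8a, had the largest (-0.20 ± 0.04, adjusted p = 2.5e-06), with log2 intensities of 8.22, 9.88 and 11.12 in females and 8.37, 9.87 and 11.63 in males. Rab28 had -0.19 ± 0.04 (adjusted p = 0.00025), with 10.15, 11.69 and 13.37 in females and 10.59, 11.68 and 13.15 in males. Females and males overlapped here too, and the spread within each sex was far wider than the gap between the medians. Across mice, the balance had an r of -0.37 (rho -0.43, -0.42 without the 2 farthest mice) with Rab8b and of -0.30 (rho -0.40, -0.42 without them) with Rab28. Rab5b of the early endosome had -0.13 ± 0.04, Rab27a, which docks secretory granules, -0.12 ± 0.04, and Rab2a -0.10 ± 0.03. Rab33b, which acts in autophagy and at the Golgi, had -0.10 ± 0.02, and the dim Rab38 and Rab39, of lysosome-related and late endosomal traffic, had -0.08 ± 0.02 each. The others above background were Rab39b (-0.08), Rab12 (-0.06), Rab34 and Rab19 (-0.05 each). With fibroblast and matrix genes alone as the stromal index, Rab8b had -0.19 and Rab5b -0.13 and both still passed. Rab28 (-0.11, adjusted p = 0.084), Rab27a (-0.07, adjusted p = 0.24), Rab2a (-0.03, adjusted p = 0.62) and Rab38 (-0.05, adjusted p = 0.055) did not. Paralogs stood on both sides. Among the Rab5 genes, Rab5c had a slope of 0.09 ± 0.02 (adjusted p = 0.00056) and Rab5b one of -0.13 (adjusted p = 0.0072), and Rab8a had 0.06 ± 0.03 (adjusted p = 0.071) beside -0.20 for Rab8b. All 13 slopes above 0 and all 15 below 0 kept their sign within each series of label numbers. The genes had been called over the mice of both series together, so kept signs are no separate check. In both series alone, 3 passed above 0 (Rab5c, Rab25 and Rab43) and 3 below 0 (Rab8b, Rab33b and the dim Rab9b). The shares of all genes that kept their sign or passed in both series were not counted.

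**Figure D2:**
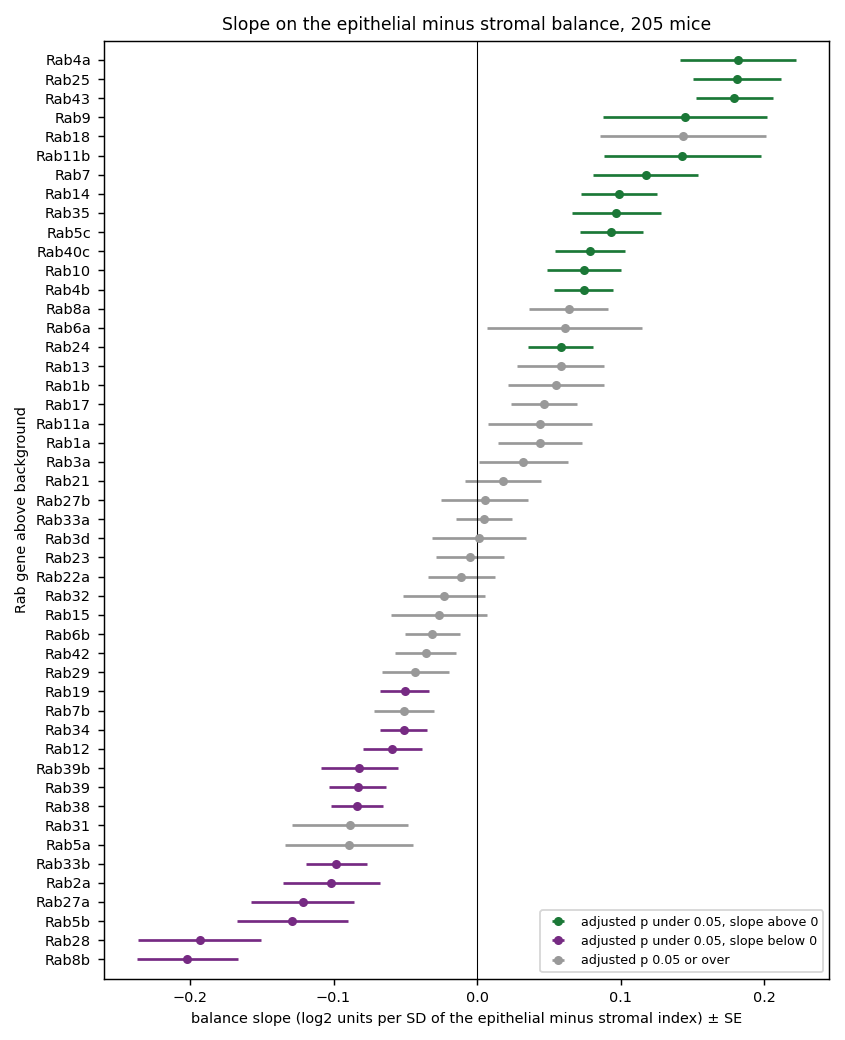
Slope of 48 Rab genes above background on the epithelial minus stromal balance in 205 mice, in log2 units per SD of the balance, with bars of 1 SE. Green and purple points passed an adjusted p under 0.05 above and below 0, grey points did not. Rab4a, Rab25 and Rab43 lie near 0.18, and Rab28 and Rab8b near -0.20.

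The balance joins 2 indices that hardly moved together (r = 0.13, rho = 0.02, n = 205), so both were also entered into 1 fit, a model chosen after the data were seen. A positive epithelial slope passed in 21 of the 48 genes above background (43.8%), where 38.2% of all genes above background had one, and a negative slope in 13 (27.1%), where 26.9% had one. Without the 8 arrays that held values below 0, 16 of the 48 passed above 0 (23.8% of all genes) and 15 below 0 (30.2%). Rab8a, Rab11a, Rab23, Rab24 and Rab27b then no longer passed above 0. Of the 8 genes above background with the lowest balance slopes, all had an epithelial slope below 0 that passed, and 1, Rab33b, also had a stromal slope above 0 that passed (0.06, adjusted p = 0.016). Rab8b had an epithelial slope of -0.24 ± 0.03 log2 units per SD (adjusted p = 6.1e-10) and a stromal slope of 0.05 ± 0.03 (adjusted p = 0.26). Rab28 had -0.22 ± 0.04 (adjusted p = 2.9e-06) and 0.06 ± 0.04 (adjusted p = 0.27), and Rab5b had -0.20 ± 0.04 (adjusted p = 2.9e-06) and -0.02 ± 0.04 (adjusted p = 0.76). Under quantile normalization, the stromal slopes of Rab8b and Rab28 were -0.02 and -0.05 and that of Rab5b -0.10 (adjusted p = 0.042). On the other side, 6 genes had epithelial slopes over 0.20, and without the 8 arrays that held values below 0 their order was not the same. Rab25 had 0.25 ± 0.03 (0.21 without the 8 arrays), Rab4a 0.25 ± 0.04 (0.19), Rab11b 0.22 ± 0.05 (0.21) and Rab43 0.21 ± 0.03 (0.20). Rab7 had 0.26 ± 0.03, against 0.14 without the 8 arrays, and Rab18 of the endoplasmic reticulum and lipid droplets had 0.27, against 0.11 (adjusted p = 0.026). The dim Rab23, known from ciliary signalling, turned round, with 0.07 (adjusted p = 0.0018) over all arrays and -0.04 (adjusted p = 0.0034) without the 8. Under all 8 settings run for this fit (as given and with other normalization, floors or mice), 13 members passed above 0 on the epithelial index. Among them were Rab4a, Rab4b, Rab10, Rab11b, Rab14, Rab25 and Rab35 of recycling. Below 0, 6 passed (Rab5b, Rab8b, Rab27a, Rab28, Rab33b and Rab39b). The share of all genes that passed under all 8 settings was not counted, for these or for the stromal and goblet slopes below.

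A positive stromal slope passed in 11 of 48 genes (22.9%), where 26.6% of all genes had one, and a negative one in 0, where 0.772% had one. Under quantile normalization, negative stromal slopes passed in 3 genes (Rab5b, Rab8a and Rab39b) and in 6.56% of all genes. Without the 8 arrays that held values below 0, positive stromal slopes passed in 2 genes, Rab6b and Rab7b, and in 6.14% of all genes. Rab7b, a late endosomal Rab known from macrophages and dendritic cells, was the only member with a positive stromal slope that passed under all 8 settings run. Its stromal slope was 0.10 ± 0.02 (adjusted p = 4.2e-05), against 0.02 ± 0.02 (adjusted p = 0.48) for the epithelial index, and 0.07 (adjusted p = 0.034) without the 8 arrays. Rab7b had log2 intensities of 5.82, 6.73 and 7.81 in females and 6.19, 6.71 and 7.69 in males, near the threshold of 6.33 for the dimmest mice. It had an r of 0.48 with the fibroblast and matrix index, 0.40 with the macrophage and granulocyte index (6 of 8 markers above background, with Itgam and S100a8 below) and 0.39 with the goblet index. The part of macrophages and of goblet cells in its stromal slope was not tested. Another probe of Rab7b, as dim, had an r of 0.28 with this one and a balance slope of -0.12 (adjusted p = 8.1e-07), against -0.05 (adjusted p = 0.059). Rab31, an early endosomal and Golgi relative of Rab5, had a stromal slope of 0.11 ± 0.04 (adjusted p = 0.017) and 0.09 (adjusted p = 0.25) without the 8 arrays.

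**Figure D3:**
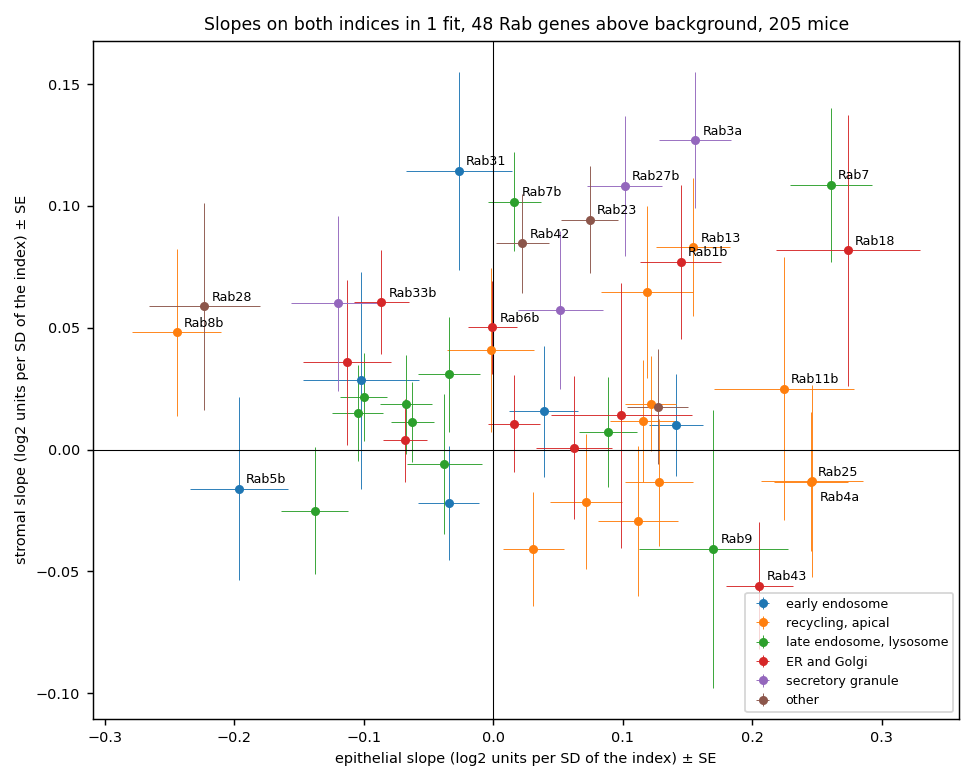
Epithelial (horizontal) and stromal (vertical) slope of 48 Rab genes above background from 1 fit over 205 mice, in log2 units per SD of each index with bars of 1 SE, coloured by compartment. Rab7b and Rab31 lie near 0 on the epithelial axis and above 0.10 on the stromal axis, while Rab8b, Rab28 and Rab5b lie at the left with stromal slopes between -0.02 and 0.06.

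Goblet cells, the mucus-secreting cells of the epithelium, had an index that was tested in a fit of its own. In a limma fit of the goblet index with sex as a covariate, also chosen after the data were seen, 15 of 48 genes (31.3%) had a positive slope, where 33.7% of all genes had one, and 10 (20.8%) a negative slope, where 18.5% had one. These counts depended on the normalization, with 4 positive and 3 negative under quantile normalization (11.0% and 8.03% of all genes) and 23 positive after subtraction of the 5th percentile of each array (53.9% of all genes). Rab27a and Rab27b, the Rabs of regulated granule exocytosis, both had positive goblet slopes. Rab27a, with log2 intensities of 8.05, 9.23 and 10.73 in females and 8.12, 9.23 and 10.74 in males, had 0.25 ± 0.03 log2 units per SD (adjusted p = 1.4e-11) and Rab27b 0.17 ± 0.03 (adjusted p = 6.6e-08). Rab28 (0.28 ± 0.04), Rab2a (0.22 ± 0.03), Rab5b (0.21 ± 0.04) and Rab8a (0.16 ± 0.03) had positive slopes as well. Negative slopes belonged to Rab6a of the Golgi (-0.33 ± 0.05, adjusted p = 8.9e-09), Rab11b (-0.32 ± 0.05, adjusted p = 3.7e-08) and Rab5a (-0.19 ± 0.04). Under all 8 settings, Rab7b, Rab27a and Rab27b had positive and Rab5a, Rab6a and Rab11b negative goblet slopes that passed. These are slopes of the brightest probe of each gene. Its r with the other probes above background was -0.35 and 0.75 for Rab5a and -0.02, 0.29 and -0.33 for Rab6a. Under quantile normalization, none of Rab28 (0.01, adjusted p = 0.82), Rab2a (0.03, adjusted p = 0.51), Rab5b (0.07, adjusted p = 0.25) and Rab8a (0.05, adjusted p = 0.10) passed. The proliferation index (6 genes, all above background) had an r of -0.31 with the goblet index. Its r was 0.58 with Rab6a, 0.45 with Rab11b, 0.45 with Rab5a and 0.59 with Rab7, and -0.50 with Rab27a, -0.56 with Rab5b and -0.45 with Rab28. The part of either cell type in these slopes was not tested.

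Indices of rarer cells carried background as well as signal. The receptor probes used for the background, of genes most of which are not known from the gut, had a median r of 0.38 with the neuron and glia index and 0.31 with the endothelial index, against -0.01 with the epithelial and 0.12 with the stromal index (1540 probes, all mice). The 11 Rab genes below background had median r of 0.47 and 0.48 with the neuron and glia and the endothelial index, so no Rab gene was assigned to these cells.

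**Figure D4:**
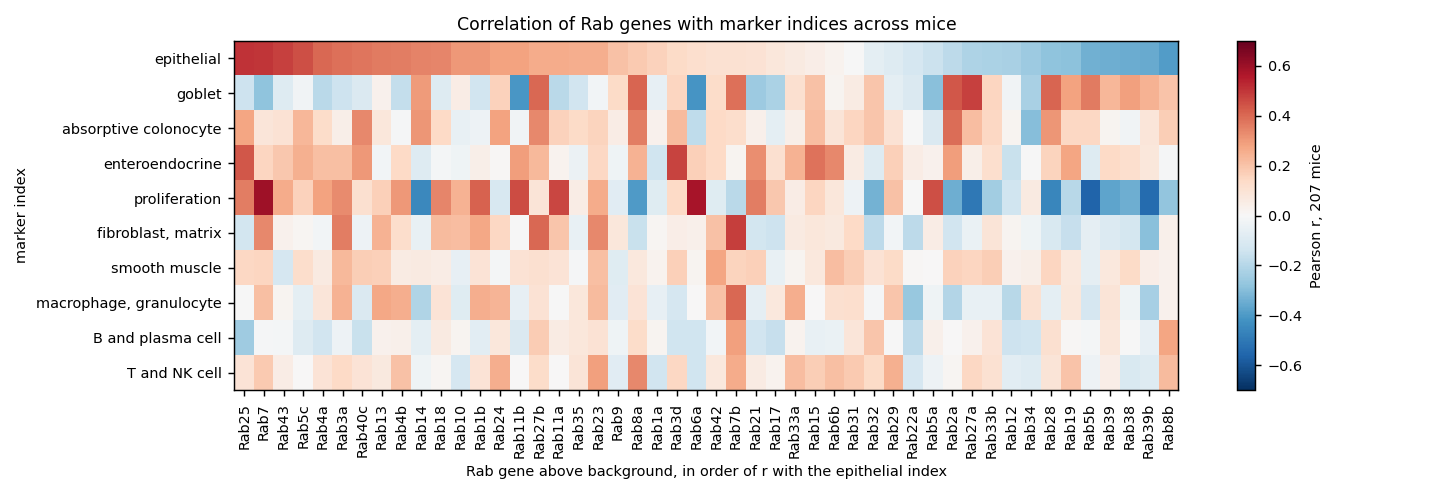
Pearson r across all mice between 48 Rab genes above background (columns, in order of r with the epithelial index) and 10 marker indices (rows). Rab25 and Rab7 stand at the left with r of 0.51 and 0.50 with the epithelial index, and Rab8b at the right with -0.39. The goblet and proliferation rows carry opposite colours for Rab6a, Rab11b, Rab27a and Rab5b.

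Across mice, some pairs of Rab genes had a high r. Of 1128 pairs among the 48 genes, 66 had an r over 0.5 and 25 an r under -0.5, with a median of 0.03 (all mice, which share lines). The highest were Rab2a with Rab28 (0.86), Rab8b with Rab28 (0.77) and Rab1b with Rab3a (0.74), and the lowest was Rab39b with Rab7 (-0.81). Rab11b and Rab25, both of the recycling endosome, had an r of 0.70. The share of such pairs among all genes was not counted. The 20 named genes nearest to Rab28 all had an r of at least 0.87 with it. For Rab8b the 20 nearest had at least 0.79 and for Rab25 at least 0.76, so these Rab pairs were not the closest. The named genes nearest to Rab25 were Ap1m2, a subunit of the epithelial clathrin adaptor (r = 0.84), Mvp (0.84), Timm50 (0.83), Atp6v0d1 (0.81) and Pnpla2 (0.81). Rab43 was nearest to Tbc1d10b, itself a GTPase-activating protein for Rabs (0.79), then to Txnrd1, Ppp1cc, Shb and Ube2q1 (0.78 to 0.75). Rab8b was nearest to Cyld (0.87), Bcap29, Bmpr2, Nedd1 and Zranb2, Rab28 to Matr3 (0.92), Lamp2 (0.91), Avl9, Bclaf1 and Slc12a2, and Rab5b to 6030458C11Rik (0.90), Fastkd1, Nktr, Tmem219 and Uqcrq.

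Of the 59 Rab genes, 7 differed between lines. The measure was the intraclass correlation (ICC) of mice of 1 line after removal of the sex means, with an F-test adjusted over all 45281 probes. An ICC near 1 means that mice within a line were nearly alike in level and lines were not. The 7 genes (11.9%) compare with 8.41% of all named genes, and among the 48 above background with 14.6% against 13.6%, so that the share of Rab genes with a line effect was near that of all genes. By probe, 9 of 112 passed, where 5.74% of all probes did. Within each series of label numbers alone, 2 Rab genes passed (Rab29 and Rab31 under 100, Rab31 and Rab35 at 100 or more), so that Rab31 passed in both (ICC 0.71, adjusted p = 8.0e-07, under 100, and 0.53, adjusted p = 0.0085, at 100 or more). Without the 8 arrays with values below 0, 12 Rab genes passed, where 4617 of all probes did. All probes include dim and unnamed ones, so that count is no like share for the 59 genes. Of the 7, 4 were genes of the late endosome and lysosome (Rab9, Rab12, Rab29 and Rab38), 2 of recycling (Rab4a and Rab35) and 1 of the early endosome (Rab31). They lie on chromosomes 1 (Rab29), 5 (Rab35), 7 (Rab38), 8 (Rab4a), 17 (Rab12 and Rab31) and X (Rab9).

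Rab31 had the highest ICC, 0.62 (95% interval 0.47 to 0.73, adjusted p = 3.6e-09), with log2 intensities of 8.10, 9.31 and 10.73 in females and 8.28, 9.35 and 11.04 in males. Its lowest line, 792, had a log2 intensity of 8.35 in the female and 8.69 in the male, and its highest, 5181, had 10.50 and 11.04. Lines 896 (8.64 and 8.47) and 1485 (8.62 and 8.59) were low in both sexes, and lines 79 (10.46 and 10.27) and 821 (10.05 and 10.76) were high in both. The 92 line means spread over 2.25 log2 units from lowest to highest, with 10th and 90th percentiles of 8.73 and 10.08. The 2 sexes within a line differed by a median of 0.32. Of all genes above background, the one nearest to Rab31 across mice was Ppp4r1 (r = 0.40), and on chromosome 17 no protein-coding gene lies between the 2 in the order of GRCm38.p6. Cox17, Tmem147, Szrd1 and Polr2l, on other chromosomes, followed at 0.40 to 0.38.

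Rab35, which recycles cargo through the fast route and acts in cytokinesis, had an ICC of 0.57 (0.41 to 0.69, adjusted p = 1.5e-07), with log2 intensities of 8.41, 10.10 and 11.09 in females and 8.39, 10.09 and 10.69 in males. Most lines lay close together and a few lay low. Lines 5118 (8.56 in the female, 8.41 in the male), 4285 (8.89 and 8.58) and 5019 (8.63 and 8.85) were the lowest, against 5168 (10.42 and 10.52) and 2020 (10.54 and 10.30) among the 3 highest. Below a level of 9.4, chosen after the values were seen, lay 21 mice. In 6 lines both sexes were below it, in 79 both were above and in 7 the sexes were split. The 5 genes nearest to Rab35, Pitpnb (r = 0.61), Fgfrl1 (0.58), Parm1 (0.57), Cox18 (0.51) and Sart3 (0.51), all lie on chromosome 5 like Rab35 itself, with 49 protein-coding genes or more between them and Rab35. Of the 20 nearest genes, 19 were on chromosome 5, which holds 6.44% of the genes above background. For the other 6 line genes, 1 to 4 of the 20 nearest were on their own chromosome.

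Rab9, which returns receptors from the late endosome to the Golgi, had an ICC of 0.39 (0.20 to 0.55, adjusted p = 0.0017). Its log2 intensity was 6.61, 9.04 and 10.33 in females and 6.14, 9.09 and 9.95 in males, with a gap at the low end. In all, 19 mice lay below 7.5, a level chosen after the values were seen, with the highest of them at 7.47 and the next mouse at 7.90. In 4 lines both sexes were below it, in 81 both were above and in 7 the sexes were split. Lines 3087 (6.66 in the female, 6.65 in the male), 5168 (6.89 and 6.55) and 780 (6.83 and 6.73) were the lowest, near the background of 6.33, against 5049 (9.66 and 9.71) among the highest. The nearest genes were Col4a5 (0.52) and Pgrmc1 (0.48), both on the X chromosome like Rab9, and Sugt1, Sema3c and Slc30a4 on other chromosomes. The 2 other probes of Rab9, dim at mean log2 intensities of 6.37 and 6.40, had ICCs of 0.08 and 0.09 (adjusted p = 0.62 each).

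Rab29, a lysosomal and Golgi Rab, had an ICC of 0.43 (0.25 to 0.58, adjusted p = 0.00029). Line 3118 had 9.21 in the female and 9.07 in the male and line 79 had 8.97 and 8.93, against 7.58 and 7.97 in line 1288, near the low end. Rab12, which acts in lysosomal degradation, had an ICC of 0.31 (0.11 to 0.48, adjusted p = 0.024), which no longer passed with the epithelial and stromal index as covariates (ICC 0.26, adjusted p = 0.10), with 8.03 and 8.48 in line 821 and 7.01 and 7.18 in line 780. Rab4a had an ICC of 0.28 (0.09 to 0.46, adjusted p = 0.048), with 10.36 and 10.30 in line 1635 and 7.37 and 8.27 in line 1200, and without the 4 mice against their labelled sex it no longer passed (ICC 0.22, adjusted p = 0.17). The dim Rab38, which serves lysosome-related organelles, had 0.39 (0.20 to 0.55, adjusted p = 0.0019), with 8.07 and 7.09 in line 5515 and 6.05 and 6.11 in line 5513. The nearest genes were Gpx1, Hikeshi, Rnf130, Mrps23 and Katna1 for Rab29 (0.57 to 0.52), Plekha5, C030013C21Rik, Mgat5, Snrnp48 and Tmem164 for Rab12 (0.64 to 0.57), and Spire2, Slc25a10, Rhof, Tmem98 and Degs2 for Rab4a (0.75 to 0.69). Those of Rab38 were Pcdhga10, Olfr378, Gm1322, Pcdhga4 and Panx3 (0.67 to 0.65). Line means of the 7 genes were largely separate, with r over the 92 lines between -0.23 (Rab35 with Rab9) and 0.27 (Rab31 with Rab29).

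**Figure D5:**
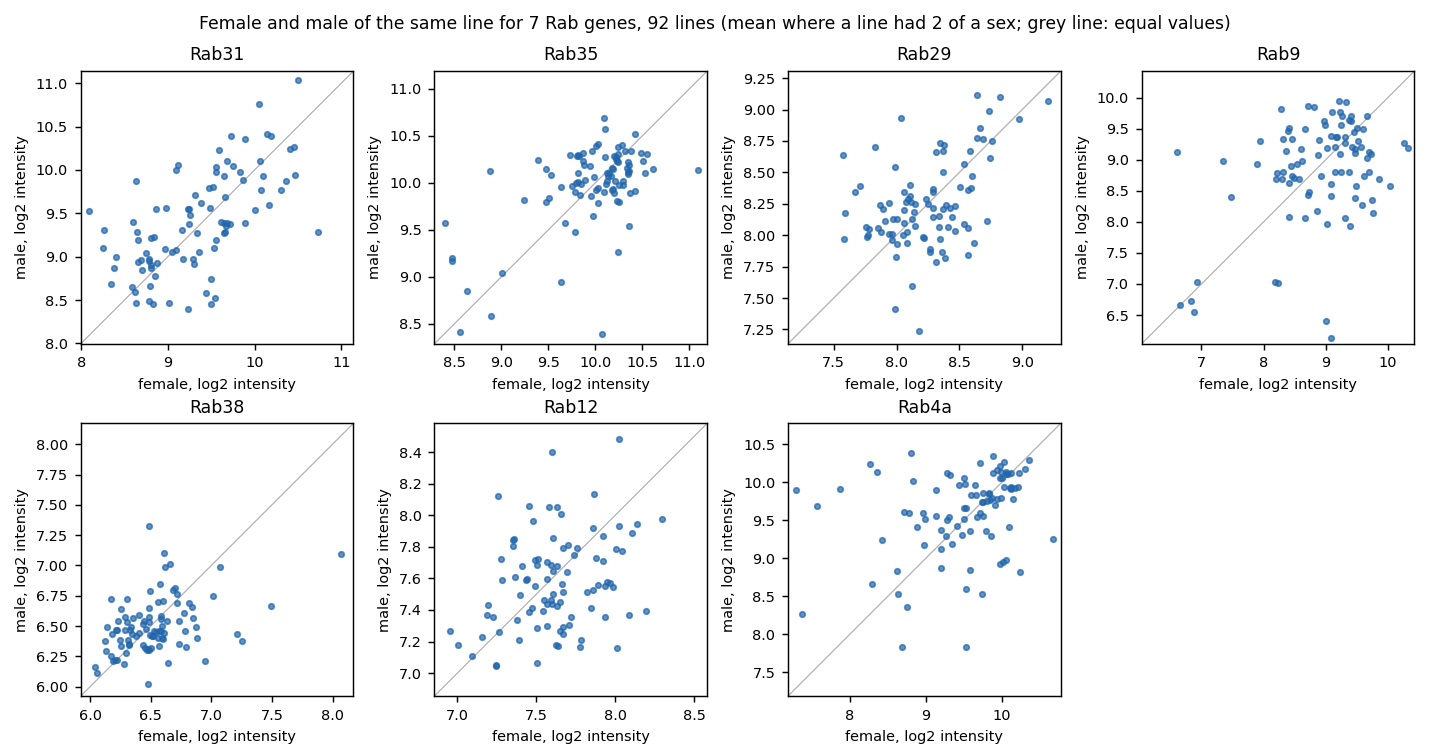
Log2 intensity in the female (horizontal) and the male (vertical) of 92 lines for the 7 Rab genes with a line effect, 1 point per line, with a grey line of equal values. Line means of Rab31 lie between 8.52 and 10.77, Rab35 has 6 lines below 9.4 in both sexes, and Rab9 has 4 lines below 7.5 in both.

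Single probes of 2 more genes passed while the representing probes did not. A probe of Rab6a at a mean log2 intensity of 7.03 had an ICC of 0.43 (adjusted p = 0.00038), with 6.27 and 6.25 in the female and male of line 5513 and 7.83 and 7.75 in line 5140. A probe of Rab43 at 7.21 had 0.40 (adjusted p = 0.0014), with 8.26 and 7.80 in line 190 and 6.62 and 6.52 in line 3515. Their r with the brightest probe of the gene were -0.02 and 0.19. Probes of 1 gene also disagreed on the balance, as for Rab14, where the brightest probe had a slope of 0.10 and another, at 7.42, -0.12 (adjusted p = 0.021). Where probes lie on variants of the founders was not known here, so whether a line effect is one of transcript level or of the probe cannot be told apart.

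The genes that regulate and serve Rab proteins were read from 4 lists. Of 108 measured genes in them, 6 had a line effect (5.56%, against 8.41% of all named genes), 15 a balance slope above 0 (13.9%, against 9.79%) and 24 one below 0 (22.2%, against 24.8%). The lists held 7 genes of lipid anchoring and recycling, 26 exchange factors, 33 GTPase-activating proteins and 42 effectors. Balance slopes above and below 0 numbered 0 and 3, 3 and 9, 5 and 3, and 7 and 9 in these lists, in that order, and limma called none of the 108 different between females and males. The 6 with a line effect were Exoc6, an exocyst subunit that binds Rab11 (ICC 0.54, 0.38 to 0.67), the Rab27 effector Sytl2 (0.45, 0.28 to 0.60), Rgp1, part of an exchange factor for Rab6 (0.38, 0.19 to 0.54), Tbc1d7 (0.37), Dennd2a (0.31) and the motor gene Myo5c (0.30). Rgp1 also had the largest balance slope (0.29 ± 0.05), before the exchange factor gene Dennd2d (0.23 ± 0.03) and Tbc1d13 (0.18 ± 0.04), and the largest below 0 were those of Evi5 (-0.18 ± 0.03), Dennd4a (-0.17 ± 0.03) and Dennd5a (-0.15 ± 0.03). Dennd5a, which in human cells is an exchange factor for Rab39, went with the stromal index in the fit of both indices (0.23 log2 units per SD, adjusted p = 2.7e-16), where its epithelial slope was -0.02 (adjusted p = 0.49).

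Whether the slope on the balance differed between females and males was tested as an interaction. In limma's interaction fit, 0 of 45281 probes (0.0%) passed and 16 of the 59 Rab genes had an unadjusted p under 0.05, with the lowest adjusted p, 0.19, for Rab40b. Among all probes, 6844 had an unadjusted p under 0.05. All probes include dim and unnamed ones, so their counts are no like share for the 59 genes. In mice with a last label number under 100 alone, 9 Rab genes passed, among them Rab2a, Rab13, Rab32 and Rab42, where 5238 of all probes did. Without the mouse with the lowest balance, Rab2a no longer passed there, while Rab13, Rab32 and Rab42 did.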

How the data were processed

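The authors deposited 1 table of intensity values for Illumina Mouse WG-6 v2 BeadChips. Per the labels and the study's methods, BeadStudio 3.0.19 normalized the arrays by the rank-invariant method, without subtracting background. The intensity scale is linear, and the number of arrays limits the precision. Probes on founder variants were not removed here.

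On the linear scale a floor of 16 was set before log2. Genes were represented by their brightest probe, and the text names Rab genes past a threshold or below background and those that passed on neither side of the balance, the 5 genes nearest by Pearson r, and the regulators with a line effect or with the 3 largest slopes on either side. The members and lists were chosen with earlier results of these data known. Slopes and differences between sexes came from limma 3.58.1 in R 4.3.3 with Benjamini-Hochberg adjustment over all 45281 probes. Line effects came from a one-way analysis of sex-centred values (ICC with a 95% interval from the F distribution) in scipy 1.17.1 and numpy 2.4.6 with pandas 2.3.3, adjusted likewise, with a threshold of 0.05. Figures used matplotlib 3.10.9. Scripts were tested on simulated data. Mice of 1 line share ancestry, and in the 91 lines with 1 female and 1 male the median correlation of their deviations was 0.24 (68.1% over 0.1), so line was also fitted as a random block. Alternatives were quantile normalization, subtraction of the 5th percentile of each array, a floor of 32, other stromal indices, leaving out the 8 arrays or the 4 mice against their labelled sex, each label series alone, and 10 principal components removed.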

Additional observations from a re-analysis of the deposited data

How the results depend on the processing

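The count of Rab genes with a line effect (7) was 12 without the 8 arrays with values below 0, 2 in each series of label numbers alone and 19 after removal of 10 principal components. Of all probes, 2601 passed as given, 4617 without the 8 arrays and 8245 after removal of the components. In the series alone, 1475 passed under 100 and 1192 at 100 or more. Counts of all probes, here and below, include dim and unnamed probes, so they are no like share for the Rab genes. The count with a balance slope above 0 (13, with 3291 of all probes) was 23 under quantile normalization (11047) and 21 with the array median as a covariate (11975). It was 4 in mice with a last number under 100 (912) and 9 in those at 100 or more (2413). In the fit of both indices, 26 Rab genes had an epithelial slope above 0 that passed, with 20080 of all probes. The count with a balance slope below 0 (15, with 9056 of all probes) was 26 after subtraction of the 5th percentile (25460). With fibroblast and matrix genes alone as the stromal index it was 6 (3062). It was 3 in mice with a last number under 100 (2762) and 15 in those at 100 or more (5779). The series under 100 held 115 mice of known sex and that at 100 or more held 90. The cause of these changes was not tested. With line as a random block, which pairs females and males of 1 line, the counts on the balance stayed 13 and 15 (consensus correlation 0.0339), and no Rab gene was called between the sexes (0.0396). The interaction of sex and balance (0 Rab genes) gave 9 in mice with a last number under 100 (5238 of all probes). Without the mouse with the lowest balance, it gave 10 there (9597 of all probes). No balance slope or line ICC named in the text that passed changed sign under the alternatives run. In the added fits, called slopes changed sign for Rab27b (-0.01) and Rab5a (0.01) on the epithelial index and for Rab4a, Rab8b, Rab32, Rab39 and Rab39b on the goblet index under quantile normalization, and for Rab1b (-0.03) and Rab13 (-0.0010) on the stromal index without the 8 arrays, and none passed with the new sign. After subtraction of the 5th percentile, the sign changed for Rab1b on the stromal and Rab34 on the goblet index, neither passing, and for Rab23 on the epithelial index (-0.10, adjusted p = 0.0035), which passed there and without the 8 arrays. Rab31 kept its line call under every alternative run, Rab9 and Rab38 lost it in each series alone, and Rab12 and Rab4a lost it there and under other alternatives. Intensities near the background limit what can be read for the 11 dim genes and for Rab7b, Rab38 and Rab39.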
